A study of Homo sapiens with 6 samples.

Results

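The 9 genes described here encode proteins of megakaryocytes and of the platelets they shed: ITGA2B, ITGB3, GP1BA, GP1BB, GP9, PF4, PPBP, FLI1 and THBS1. They were taken by name from a list of lineage genes, out of 19864 protein-coding genes on chromosomes 1 to 22 and X, and all 9 were found in the gene annotation (GENCODE release 29, build GRCh38). Their transcription was read from precision run-on sequencing, which labels the RNA of polymerases that are engaged on DNA, in K562 cells. K562 is an established line from a patient with chronic myeloid leukaemia. It is 1 transformed line that can be driven towards erythroid or megakaryocytic features, and the labels call it lymphoblastoid.

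The data were 3 lists of dREG peaks. dREG is a trained model that marks active promoters and enhancers by the pattern of run-on reads on the 2 strands. Each list stands for 2 biological replicates, grown at least 3 passages apart. PRO-seq 1M is the standard protocol with 1M permeabilized cells as input, qPRO-seq 1M is a shortened version with the same input, and qPRO-seq 250k is that version with 250k cells. The qPRO-seq 250k libraries had 14 PCR cycles and those of both 1M groups 11, so input and cycles differ together. The cells of all groups were untreated. The lists held 24707, 38177 and 15562 peaks on the chromosomes used. With 1 list per group and no read counts, there was no spread between replicates, the depth was unknown and no test between lists was possible. Among marker lists, 13 of 17 erythroid genes had a peak at a transcript start in all 3 lists, against 1 of 7 T-lymphoid genes (TCF7), 1 of 7 granulocyte and monocyte genes (SPI1), 0 of 5 endothelial genes and 1 of 4 fibroblast genes (COL1A1).

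Megakaryocytes are the large bone marrow cells that release platelets. They share a progenitor with the erythroid lineage, and GATA1 with its partners acts in both lineages. FLI1, a transcription factor of the ETS family, is known for favouring the megakaryocytic programme over the erythroid one. ITGA2B and ITGB3 encode the subunits of the integrin that binds fibrinogen and links platelets to each other. GP1BA, GP1BB and GP9 encode subunits of the receptor that tethers platelets to von Willebrand factor. PF4 and PPBP are chemokines, and THBS1 is an adhesive glycoprotein; all of these are stored in platelet alpha granules.

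The genes fell into groups of active and silent members that were the same in every list. A member was counted as active when a peak came to within 500 bp of a transcript start that the annotation gives it. ITGA2B, ITGB3 and GP1BB met this rule in all of the lists. GP1BA, GP9, PF4, PPBP, FLI1 and THBS1 met it in no list and are called silent here, which means only that no peak was listed. The 3 of 9 members with a start peak stand beside 52.9% of all protein-coding genes in PRO-seq 1M, 54.5% in qPRO-seq 1M and 44.0% in qPRO-seq 250k. Counted over the lists together, 43.1% of all protein-coding genes had one in every list and 43.5% in none. Both integrin subunits were thus among the active members, together with 1 of the 3 subunits of the von Willebrand factor receptor, while neither granule chemokine nor the granule glycoprotein was.

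The promoter sequences below show the DNA at an active start (GP1BB), at an annotated start that had no peak although its gene had one elsewhere (ITGA2B), and at silent starts (GP9 and PPBP). They are RefSeq sequences on GRCh38.p14, running from 250 bases before the RefSeq start to 50 after it, 5′ to 3′ on the gene's strand. RefSeq's table matched 5 of the 9 members (GP1BB, GP9, ITGA2B, PPBP and THBS1). The RefSeq start of ITGA2B, 44389649, lies 144 bp upstream of its GENCODE 5′ end, 44389505, which the printed bases do not include. Capitals mark matches, on either strand, to a GATA motif, spelled AGATAA, with G as an alternative last base and T as an alternative first base, or as the core GATAA, which overlaps the spellings that end in A. The core was added after the sequences had been seen.
GP1BB, chr22:19723289-19723588, plus strand: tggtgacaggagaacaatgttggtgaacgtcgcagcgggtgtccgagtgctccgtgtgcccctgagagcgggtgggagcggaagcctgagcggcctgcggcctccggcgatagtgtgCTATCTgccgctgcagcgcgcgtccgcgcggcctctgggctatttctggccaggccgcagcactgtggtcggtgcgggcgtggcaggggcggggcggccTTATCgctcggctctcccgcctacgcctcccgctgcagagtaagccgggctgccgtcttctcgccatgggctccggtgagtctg
ITGA2B, chr17:44389600-44389899, minus strand: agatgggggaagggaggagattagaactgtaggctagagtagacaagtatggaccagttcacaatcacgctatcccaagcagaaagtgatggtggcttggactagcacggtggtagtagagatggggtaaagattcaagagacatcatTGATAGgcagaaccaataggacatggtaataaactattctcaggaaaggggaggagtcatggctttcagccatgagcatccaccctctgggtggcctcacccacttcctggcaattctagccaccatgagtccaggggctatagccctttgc
GP9, chr3:129060529-129060828, plus strand: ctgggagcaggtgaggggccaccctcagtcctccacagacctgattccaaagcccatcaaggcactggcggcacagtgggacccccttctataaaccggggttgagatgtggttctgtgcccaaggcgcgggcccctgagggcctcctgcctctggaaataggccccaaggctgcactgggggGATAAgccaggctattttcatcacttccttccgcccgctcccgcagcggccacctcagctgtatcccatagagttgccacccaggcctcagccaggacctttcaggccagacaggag
PPBP, chr4:73988141-73988440, minus strand: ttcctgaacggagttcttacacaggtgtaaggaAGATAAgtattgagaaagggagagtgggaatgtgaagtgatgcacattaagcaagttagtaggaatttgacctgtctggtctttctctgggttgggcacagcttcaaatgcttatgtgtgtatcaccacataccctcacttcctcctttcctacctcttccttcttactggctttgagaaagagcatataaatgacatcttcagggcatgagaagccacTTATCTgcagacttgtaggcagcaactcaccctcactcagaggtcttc

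The 6-base GATA spellings matched once in the GP1BB and ITGA2B promoters, 2 times in that of PPBP and not in those of GP9 and THBS1. Of 34961 promoters of the same length, 24.9% held at least 1 of them. The core GATAA occurred in the GP1BB, GP9 and PPBP promoters and in 22.7% of all promoters. An ETS motif, spelled CGGAAG or with A as the first base, was found in all 5 matched promoters, with 3 matches in PPBP and 2 in GP9, and in 46.9% of all promoters. A RUNX motif, TGTGGT, occurred once each in GP1BB, GP9 and PPBP, against 13.1% of all promoters. The TATA box letters TATAAA were present in the silent PPBP and GP9 promoters, at -31 and -161 from the start, and in 11.5% of all promoters. CCAAT was found in ITGA2B and THBS1 and in 34.6% of all promoters. The GATA, ETS and RUNX letters were thus found in the active GP1BB promoter and in at least 1 silent promoter. GC content was 69.3% in the GP1BB promoter, 70.0% in THBS1, 62.3% in GP9, 49.7% in ITGA2B and 44.7% in PPBP, beside a median of 58.7% over all promoters.

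GP1BB, the beta chain of the von Willebrand factor receptor, was the active member whose peak ranked highest in the smallest list and stayed at percentile 69.7 or above in every list. A percentile here is the share of peaks in the same list that scored lower, and since the lists differ in length it shows no change between them. The GENCODE gene spans chr22:19722945-19724771 on the plus strand (ENSG00000203618.5), with 1 transcript of 2 exons. Its top start peak lay at 19723301 to 19723830 in PRO-seq 1M (score 0.851, percentile 74.0). In qPRO-seq 1M it lay at 19723211 to 19723810 (score 0.798, percentile 76.9), and in qPRO-seq 250k at 19723211 to 19723750 (score 0.698, percentile 69.7). The 3 intervals shared 450 bp, and the authors' centres were spread over 40 bp.

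These peaks sat at the RefSeq start of GP1BB rather than at the GENCODE start. RefSeq places the start at 19723539, inside GENCODE exon 1 (19722945 to 19723579) and 594 bp downstream of the GENCODE start. Relative to the RefSeq start the centres were at -89 bp in PRO-seq 1M, -49 bp in qPRO-seq 1M and -59 bp in qPRO-seq 250k. The printed promoter was covered by the peaks over 288, 300 and 300 of its 300 bases, PRO-seq 1M first. The gap between the top peak and the GENCODE start was 356 bp in PRO-seq 1M and 266 bp in both qPRO-seq lists, the members' values closest inside the limit of 500 bp; with a limit of 250 bp GP1BB had a start peak in 2 lists. The closest value outside the limit was that of THBS1 in qPRO-seq 1M, 6279 bp.

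GP1BB had further peaks within its short body. PRO-seq 1M listed a second start peak at 19723101 to 19723280, at percentile 0.9, and qPRO-seq 1M listed one at 19722741 to 19723190, at percentile 18.6, across the GENCODE start. A peak in exon 2, more than 500 bp from any annotated start, was listed by both 1M lists, at 19724081 to 19724430 (percentile 62.1) and at 19724061 to 19724510 (percentile 79.6). The gene overlaps the read-through gene SEPT5-GP1BB and SEPT5, which encodes a septin, on the same strand. A peak inside GP1BB can therefore not be assigned to 1 of these annotations. SEPT5 itself had a start peak in each list, with top percentiles of 58.3 in PRO-seq 1M, 67.9 in qPRO-seq 1M and 32.7 in qPRO-seq 250k. Values given in threes keep this order of the lists throughout.

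Among the 8565 other genes with a start peak in all 3 lists, HNRNPK and RMI1 had the percentiles most like those of GP1BB, with 73.9, 77.1 and 69.2 for the same peaks at both genes. Next was PYGB, with 75.8, 76.8 and 68.0. The largest difference from GP1BB in any list was 0.45 percentile points for the former and 1.7 for the latter. The likeness covers 3 values per gene.

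ITGA2B, the alpha subunit of the fibrinogen receptor, had its peak inside the gene. The gene spans chr17:44372180-44389505 on the minus strand (ENSG00000005961.18), with 10 transcripts and 9 distinct starts. The peak lay at 44385261 to 44385820 in PRO-seq 1M (score 0.911, percentile 79.5), at 44385291 to 44386010 in qPRO-seq 1M (score 0.893, percentile 84.5) and at 44385301 to 44385670 in qPRO-seq 250k (score 0.449, percentile 29). All 3 shared 370 bp, with centres spread over 20 bp. The centres lay 3955, 3975 and 3975 bp downstream of the annotated 5′ end. In the 30-exon transcript ITGA2B-201, the PRO-seq 1M centre lay at the edge of exon 4. Both qPRO-seq centres lay in the intron between exons 4 and 5, and every peak overlapped both exons.

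No list had a peak at the 5′ end of ITGA2B. The nearest edge of any peak was 3685 bp away in PRO-seq 1M, 3495 bp in qPRO-seq 1M and 3835 bp in qPRO-seq 250k. The printed promoter, which belongs to the RefSeq start, was covered over 0 of 300 bases in each list. ITGA2B counted as active through transcripts that GENCODE starts inside the gene, within 500 bp of the peak; with the gene's 5′ end alone it had a start peak in 0 lists, and 2 members were active. The annotated start nearest to the peaks was that of ITGA2B-203, with centres at -187, -167 and -167 bp from it. With starts of protein-coding transcripts only, ITGA2B still had a start peak in 3 lists. The retained-intron transcript ITGA2B-209 begins with an exon at chr17:44385551-44385809 on the minus strand. The 259 bases of this exon were covered in full by the peaks of both 1M lists and over 120 bases by that of qPRO-seq 250k. Its sequence, from the GENCODE transcript, is shown because it lies in full under the peaks of the 1M lists. Only 120 of its bases belong to the interval that all lists shared. The peak centres, 44385550, 44385530 and 44385530, lie at or just past the exon's end at 44385551. The exon held no match to any of the motifs spelled out above, so no base is in capitals.
ITGA2B-209 exon 1: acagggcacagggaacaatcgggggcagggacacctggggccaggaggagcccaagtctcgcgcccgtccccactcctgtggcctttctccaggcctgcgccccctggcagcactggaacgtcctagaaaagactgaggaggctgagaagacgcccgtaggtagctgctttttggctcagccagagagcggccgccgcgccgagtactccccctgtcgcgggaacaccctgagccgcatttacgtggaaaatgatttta

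ITGB3, the beta subunit of the same integrin, had a peak directly on its 5′ end. The gene spans chr17:47253846-47311816 on the plus strand (ENSG00000259207.7). The start peak lay at 47253641 to 47254090 in PRO-seq 1M (score 0.824, percentile 71.5), 47253681 to 47254080 in qPRO-seq 1M (score 0.664, percentile 64.2) and 47253731 to 47254090 in qPRO-seq 250k (score 0.595, percentile 55.1). Each interval covered all of exon 1 (47253846 to 47253940), and the centres were 4, 64 and 64 bp downstream of the gene start. The read-through gene AC068234.1 is annotated from nearly the same start on the same strand, so the peak belongs to both annotations. The partner subunits thus differed in where their peak lay, at the annotated 5′ end of ITGB3 and within the body of ITGA2B, in all 3 lists.

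**Figure D1:**
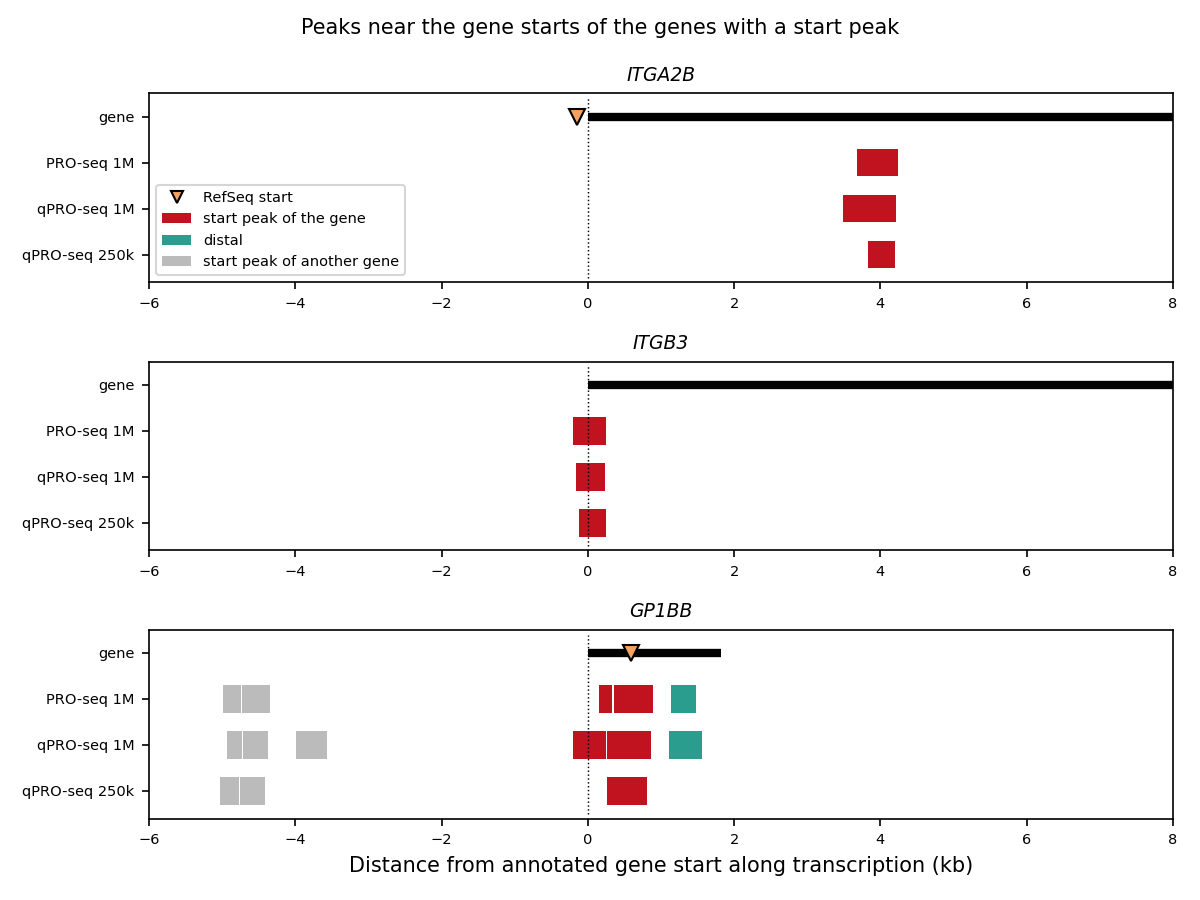
Peak intervals of each list by distance from the GENCODE gene start in kb, read along transcription, for ITGA2B, ITGB3 and GP1BB; the black bar is the gene, the dotted line its start and the triangle the RefSeq start where the table held one. The ITGA2B peaks lie 3495 bp or more inside the gene, the ITGB3 peaks cover the start, and the top GP1BB peaks cover the RefSeq start, 594 bp downstream.

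Set against other active genes, the start peaks of the members were of middling or lower rank. Over the 10503 genes with a start peak in PRO-seq 1M, the median percentile of the top start peak was 76.4, with an interquartile range of 57.3 to 89.2. It was 80.7 (62.8 to 91.2) over 10821 genes in qPRO-seq 1M and 68.2 (44.7 to 85.3) over 8735 genes in qPRO-seq 250k. ITGA2B stood above the median in both 1M lists and below the lower quartile in qPRO-seq 250k. ITGB3 stood below the median in all 3 lists, and GP1BB below it in the 1M lists and above it in qPRO-seq 250k.

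**Figure D2:**
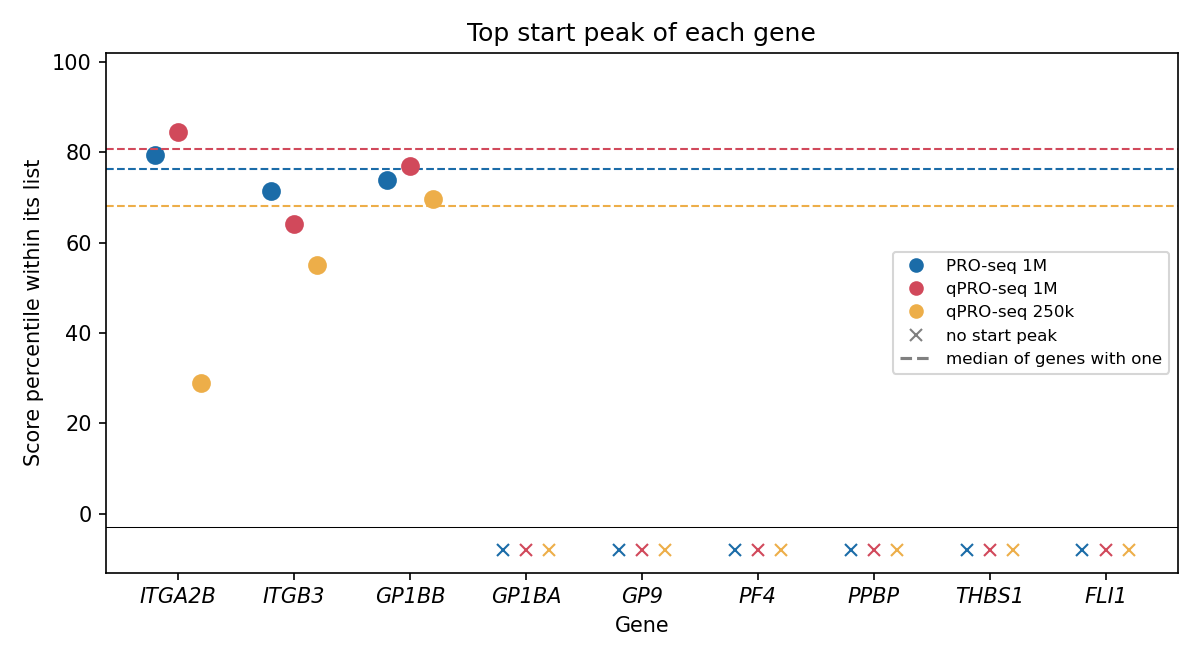
Score percentile of the top start peak within its own list (vertical axis, percent of peaks that scored lower) for the 9 genes, with a cross where no start peak was listed and dashed lines at the median over all genes with one. ITGA2B, ITGB3 and GP1BB carry 3 points each between 29 and 84.5, and the other 6 genes have crosses only.

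The remaining subunits of the von Willebrand factor receptor were silent in different surroundings. GP1BA, the alpha chain that holds the binding site for von Willebrand factor (chr17:4932297-4935030, plus strand, ENSG00000185245.7), lay in a gene-dense region. Within 100 kb of it were 13 peaks in PRO-seq 1M, 13 in qPRO-seq 1M and 4 in qPRO-seq 250k, and every one was at the start of another gene. The nearest peak began 7564 and 7584 bp from the GP1BA start in the 1M lists, at the shared start region of SLC25A11 and RNF167, and 16114 bp away in qPRO-seq 250k, at the starts of PFN1 and ENO3. GP9 (chr3:129060767-129062406, plus strand, ENSG00000169704.4), the small subunit of the complex, had its nearest peak 33367, 33387 and 33427 bp upstream in the 3 lists. That peak lay in an intron of EFCC1 and was shared by all lists, at percentiles 77.4, 75.3 and 52.7. The protein-coding neighbours EFCC1 and RAB43 had no start peak in any list.

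PF4 and PPBP are neighbours on chromosome 4 and had the same surrounding peaks. PF4 spans chr4:73981077-73982124 (ENSG00000163737.3) and PPBP chr4:73987038-73988197 (ENSG00000163736.3), both on the minus strand. No list had a peak between them, at either gene or at the adjacent CXCL5, which encodes another chemokine. The nearest peaks belonged to the start of CXCL3, 56067, 56237 and 56287 bp from the PF4 start and 49994, 50164 and 50214 bp from the PPBP start. CXCL3 had a top start peak at percentiles 82.0, 85.7 and 68.0. PF4V1, a near-identical copy of PF4, had no start peak in any list either. Reads from such copies can be placed on either gene or dropped, which was not tested here, so the absence of a call at PF4 is uncertain. A chemokine gene with peaks in all 3 lists thus lay in the same cluster as the 2 silent platelet chemokines.

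THBS1 and FLI1 were the members with the fewest peaks around them. THBS1 (chr15:39581079-39599466, plus strand, ENSG00000137801.10) had no peak of any kind within 100 kb in PRO-seq 1M or qPRO-seq 250k, where the nearest one to its 5′ end was 201192 and 201212 bp away, at a start of FSIP1. In qPRO-seq 1M a distal peak lay at 39574231 to 39574800, upstream of the gene by 6279 bp, at percentile 71.5. A second lay at 39698961 to 39699290 in an intron of FSIP1, 99495 bp from the gene body, at percentile 63.4. FLI1 (chr11:128686535-128813267, plus strand, ENSG00000151702.16) has 8 distinct annotated starts, and none had a peak. PRO-seq 1M and qPRO-seq 250k had no peak within 100 kb of it. Their nearest peak to its 5′ end was at a start of ETS1, a relative of FLI1 in the ETS family, 163745 and 163865 bp away. In qPRO-seq 1M a single peak lay beyond the 3′ end of FLI1, at 128820011 to 128820490 and percentile 41.4. An empty window of this kind was found for 15.5% of all protein-coding genes in PRO-seq 1M, 11.1% in qPRO-seq 1M and 20.5% in qPRO-seq 250k, shares to be read beside 2 of 9 members in PRO-seq 1M, 0 of 9 in qPRO-seq 1M and 2 of 9 in qPRO-seq 250k.

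Distal peaks, more than 500 bp from every annotated start, were counted within 100 kb of each gene body. In PRO-seq 1M 5 of the 9 members had one, beside 54.0% of all protein-coding genes. In qPRO-seq 1M 8 of 9 had one, with GP1BA the exception, beside 75.2%. In qPRO-seq 250k 5 of 9 had one, beside 38.0%. PF4 and PPBP were counted there through the same single peak, centred 873 bp from the CXCL3 start. The only ITGA2B peak in that list was centred 1430 bp from the SLC25A39 start. With distal set to more than 1000 bp from any start, 3 members had one in qPRO-seq 250k. The distal peaks numbered 17, 32 and 8 in the 3 lists when a peak near 2 members was counted once. With each list held to its 15562 highest-scored peaks they numbered 8, 14 and 8, and the members with one in PRO-seq 1M were 3 instead of 5. Their median percentile was 32.0, 51.0 and 35.5, beside 33.9, 39.6 and 35.2 over all distal peaks of the same list.

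GP1BB had the most distal peaks of the 9 genes. Its window held 9 in PRO-seq 1M, 10 in qPRO-seq 1M and 4 in qPRO-seq 250k, and 98.6%, 96.0% and 95.9% of all protein-coding genes had fewer. The medians over all genes were 1, 2 and 0. The highest-ranked lay between genes at 19691571 to 19692280 in PRO-seq 1M (percentile 72.2), 19691681 to 19692410 in qPRO-seq 1M (percentile 95.7) and 19691691 to 19692190 in qPRO-seq 250k (percentile 69.8). It was 22404, 22444 and 22554 bp from the nearest protein-coding start, which was that of SEPT5, not of GP1BB. A group of peaks between 19643281 and 19644370 and a peak in an intron of GNB1L, at 19815221 to 19816070, also recurred in all 3 lists.

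ITGB3 had distal peaks in 1 list only. qPRO-seq 1M had 7, and neither PRO-seq 1M nor qPRO-seq 250k had any. Of the 7, 4 lay in introns of ITGB3, at percentiles 74.3, 13, 5.6 and 5.7. The top one, at 47265921 to 47266390, was centred 12344 bp downstream of the gene start in intron 1. The other 3, upstream of the gene, were at percentiles 35.9, 70.8 and 33.8. The list with these peaks was also the longest of the 3, and 2 of the 7 were among its 15562 highest-scored peaks, the number the shortest list held in all.

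ITGA2B had 4, 7 and 1 distal peaks in its window. Of these, the highest ranks were at 44288281 to 44288950 in qPRO-seq 1M (percentile 99.6) and at 44279551 to 44280130 (percentile 95.1). Both had a counterpart in PRO-seq 1M, at percentiles 53.6 and 59.1, and none in qPRO-seq 250k. The qPRO-seq 1M peaks lay 83230 and 92050 bp from the gene body and were nearer to the starts of RUNDC3A and SLC4A1, which encodes the anion exchanger of the red cell membrane. The distal peaks around GP9 numbered 2 in each list, and those around PF4 and PPBP numbered 2, 3 and 1.

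**Figure D3:**
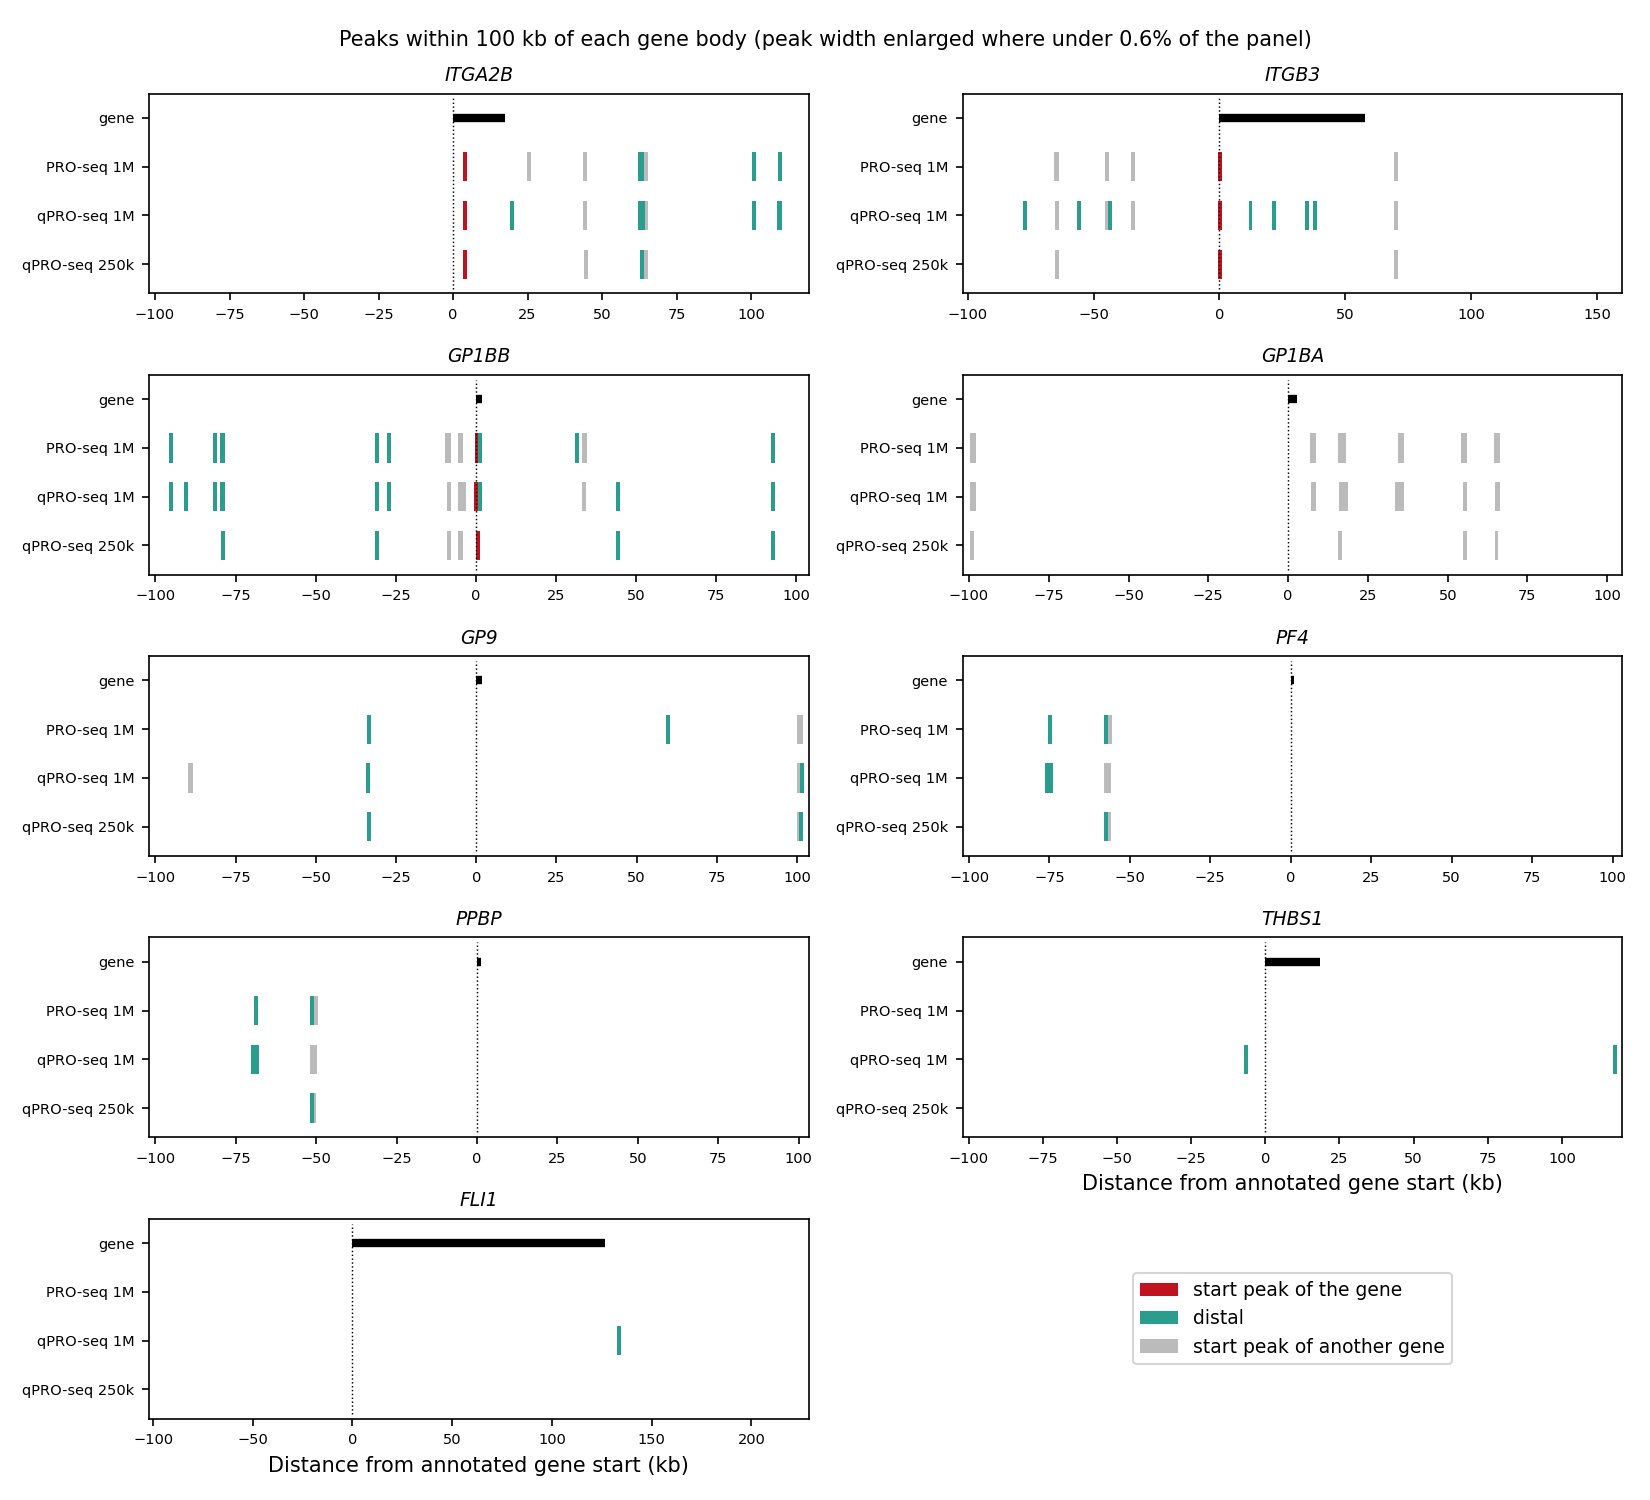
Peaks of each list within 100 kb of the body of each gene, by distance from the gene start in kb along transcription; colours separate start peaks of the gene, distal peaks and start peaks of other genes. GP1BB has the densest set of distal peaks (9, 10 and 4), the ITGB3 window holds distal peaks in qPRO-seq 1M alone (7), and the FLI1 window holds 1 peak in all.

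Most distal peaks in these windows had another gene as their nearest protein-coding start. A member was nearest for 1 of 17 distal peaks in PRO-seq 1M, 6 of 32 in qPRO-seq 1M and 0 of 8 in qPRO-seq 250k. The 6 were 3 in introns of ITGB3, the GP1BB exon 2 peak, the peak upstream of THBS1 and the peak downstream of FLI1. A further ITGB3 intron peak was nearest to AC068234.1, which shares the ITGB3 start region. Of the 32 qPRO-seq 1M peaks, 18 were between genes, 10 in introns and 4 overlapped an exon.

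Joining overlapping peaks of the 3 lists gave 31 regions with a distal peak near a member. Of these, 7 (22.6%) had a peak in all 3 lists, 7 in both 1M lists alone, 1 in both qPRO-seq lists alone, 14 (45.2%) in qPRO-seq 1M alone and 2 in PRO-seq 1M alone. The 7 regions shared by all lists became 4 when overlaps had to cover 50% of each peak and 2 when centres had to lie within 100 bp. Among the 17888 such regions of the whole series, 19.2% had a peak in all 3 lists and 52.4% in qPRO-seq 1M alone. In 3 of the 31 regions, near SLC25A39, ISY1 and CXCL3, a joined peak was also within 500 bp of a start. All 3 were among the 7 regions shared by all lists. Near ISY1 the PRO-seq 1M peaks, and near CXCL3 the qPRO-seq 1M peaks, were all start peaks of those genes. These 2 regions therefore did not hold a distal peak in every list. Of the 7 regions shared by all lists, 3 were near GP1BB, 2 near GP9 (1 of them that at ISY1), 1 near ITGA2B (that at SLC25A39) and 1 near both PF4 and PPBP (that at CXCL3). None was near ITGB3, THBS1 or FLI1.

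Other genes of the lineage give the frame for these members. In 98 further megakaryocyte and platelet genes, grouped by role, 44 (44.9%) had a start peak in all 3 lists, 20 in 1 or 2 lists and 34 in none, beside 43.1% and 43.5% over all protein-coding genes for all lists and none. The groups differed. Of 24 transcription factors of the lineage, 19 had a start peak in all 3 of them and 2 in none (ERG, an ETS factor close to FLI1, and HOXA11). The 19 included GATA1, RUNX1, GFI1B, a repressor of the GATA1 network (percentiles 98.4, 89.6 and 98.0), and NFE2, a factor needed for platelet release (44.8, 62.1 and 14.8).

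Surface receptors were the group with the fewest. Of 25 adhesion and signalling receptors, 3 had a start peak in all 3 lists, namely P2RY1, an ADP receptor (percentiles 84.5, 92.1 and 67.5), F11R and ICAM2, and 17 had none. The 17 included GP5 and GP6, which are platelet glycoproteins for the von Willebrand factor complex and for collagen, and SELP, the P-selectin gene. Of 24 granule and secreted proteins and enzymes, 9 had a start peak in all 3 lists and 7 in none. The latter included VWF, F5 and MMRN1, and the former SRGN, the granule proteoglycan (93.1, 69.4 and 27.9), and TGFB1. Of 25 genes of the cytoskeleton, signalling and membrane traffic, 13 had one in all 3 lists and 8 in none, among the latter TUBB1, the platelet tubulin, and PLEK. The receptors among the members, with 3 of 5 active, and the granule proteins, with 0 of 3, are counted apart from these groups.

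**Figure D4:**
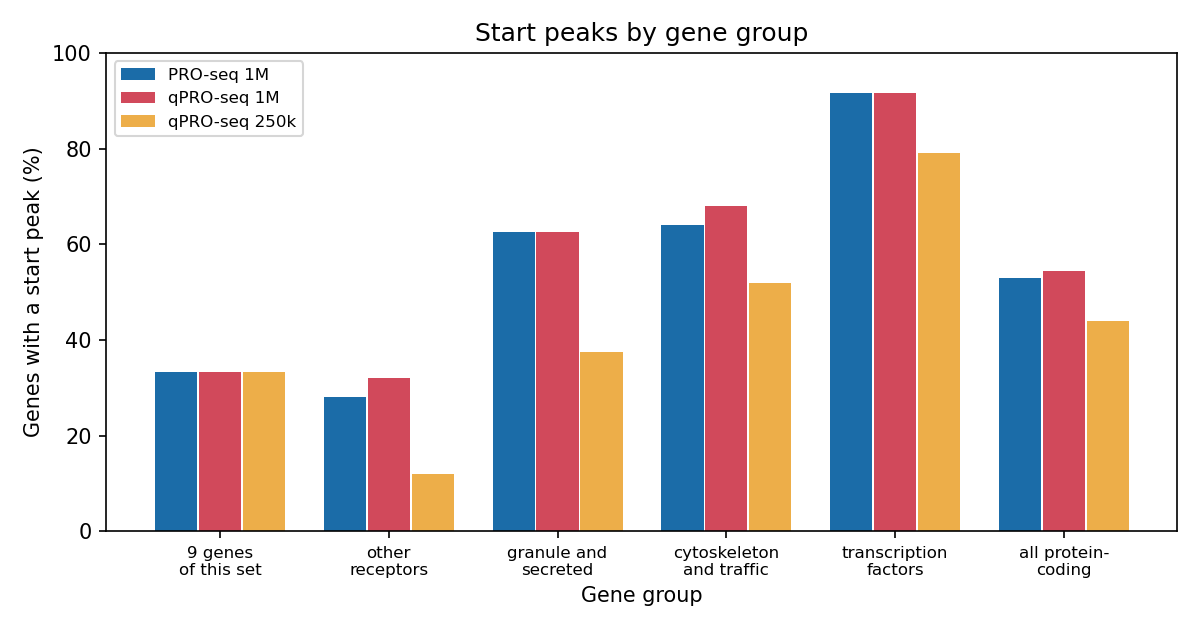
Share of genes with a start peak in each list (percent, bars from 0) for the 9 genes described here, for 4 groups of other megakaryocyte and platelet genes and for all 19864 protein-coding genes. The transcription factors reach the highest bars (22, 22 and 19 of 24 genes) and the other receptors the lowest (7, 8 and 3 of 25).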

How the data were processed

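Peak lists were analysed for 3 groups of 2 K562 libraries, grouped by sample title. Per the labels, each list holds dREG peaks for both replicates of its group; the submitters' processing notes name fastp 0.20.0, Bowtie2 2.3.5.1, UMI-tools, deepTools 3.1.3 and build hg38 (GRCh38), while the pooling of replicates and the dREG settings are not given in the sources used here. The score and the p-value of each peak are as the authors deposited them; the score has no fixed unit and was used within its own list only. Peak starts were made 1-based, and peak centres were used as deposited.

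Gene positions came from GENCODE 29 and promoter sequences from RefSeq (GRCh38.p14). A start peak lay within 500 bp of any annotated transcript start of the gene; a distal peak was over 500 bp from every annotated start and within 100 kb of the gene body. Peaks of the lists were joined where they shared at least 1 bp. Percentiles are shares of peaks with a lower score. The counting was tested on constructed peaks at 200 genes. Python 3.11.15, numpy 2.4.6 and pandas 2.3.3 were used. The members and gene lists were chosen with earlier results of these data known. All members are named; other genes named are those whose start is nearest to a peak or that flank a member, members of the gene lists, and the 3 genes with percentiles nearest to those of the member with the highest mean percentile (GP1BB). No p-value was computed.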

Additional observations from a re-analysis of the deposited data

How the results depend on the processing

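Depth is unknown for all lists, so a missing peak means that none was listed, not that transcription was absent. No paired analysis was possible because each list holds both replicates together; leaving out a replicate was not run for the same reason. Other settings were fixed with earlier results known; RefSeq starts and the GATAA core were added later.

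ITGB3 had a start peak in 3 lists under each of 7 settings for start peaks. The 6 silent members had one in 0 lists under each of them. All of these settings except the window of 1000 bp only remove peaks or starts. Under those, the 0 of a silent member was fixed by construction and is no test of it. The window of 1000 bp admits more peaks, and with it each silent member still had a start peak in 0 lists. The RefSeq starts, an eighth setting, applied to the 5 members the table held, and GP9, PPBP and THBS1 had no start peak with them either. ITGA2B had one in 0 lists with the gene's 5′ end alone or with RefSeq starts, and in 2 lists with scores at or above the list median. GP1BB had one in 2 lists with a window of 250 bp. The count of members with a start peak was 3 or 2 in each list throughout.

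Counts of distal peaks changed more; they are given for PRO-seq 1M first and qPRO-seq 250k last. Within 50 kb there were 7, 16 and 4, and within 250 kb 26, 60 and 12. At or above the median score there were 6, 16 and 2, and with each list held to its top 15562 peaks 8, 14 and 8. These settings admit fewer or more peaks by construction. Members with a distal peak fell from 5 to 3 in PRO-seq 1M within 50 kb, at p up to 0.01, at or above the median score and at equal list size. In qPRO-seq 250k they fell from 5 to 3 within 50 kb and with starts cleared by 1000 bp, and to 2 at or above the median score. The 7 regions shared by all lists became 4 when overlaps had to cover 50% or more of each peak and 2 with centres within 100 bp. Taking these distal counts together with the counts of members with a start peak, 52 of 71 alternative values stayed within 1.5 times the reported one. The 19 that moved further were all distal counts, since start-peak counts of 3 or 2 lie within that limit.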
